A study of Mus musculus with 6 samples.

Results

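The 41 genes described here are markers of macrophages and genes of the lysosome, the compartment in which macrophages digest what they take up. They were picked by symbol from the count table of 57180 genes, all 41 were found, and all 41 had enough counts to be tested, as did 17320 genes in all. They fall in 4 classes. A class of 12 holds receptors and a transcription factor of tissue-resident macrophages, 6 genes mark lipid-associated macrophages, 6 encode lysosomal enzymes (5 cathepsins and the acid lipase Lipa), and 17 are general to myeloid cells. The tissue was inguinal white fat, a depot under the skin, of WT mice with obesity induced by high-fat feeding. The ADISSP group (3 libraries) had been given rAdissp, recombinant adipose secreted signalling protein, at 68 nmol per kg each day for 33 days, and the Control group (3 libraries) shared the genotype and the diet. The labels give all libraries as batch 1 and as biological triplicates. What the controls received, the age and sex of the mice, how many mice stand behind a library and whether the lymph node inside the pad was taken out are not stated there.

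Macrophages arise from embryonic precursors or from blood monocytes and depend on signalling through the receptor Csf1r. In lean fat most of them lie along vessels and carry scavenger and lectin receptors. In obese fat, lipid-associated macrophages gather around dying fat cells, take up their lipid through lysosomes and switch on Trem2, Cd9 and Gpnmb. Cathepsins are lysosomal proteases, most of them with cysteine in the active site and Ctsd with aspartate, and many cell types other than macrophages make them.

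Regulatory sequence is shown for 7 members on which the results turn: both steeply lower resident genes, neighbouring cathepsins that fell, a cathepsin that did not pass, and both members that rose. Each is the 250 bases before the RefSeq gene start on GRCm38.p6, on the strand of the gene. Capitals mark GAGGAA or its reverse complement, the core of the site of PU.1 (the product of the member Spi1), and CACGTG, the core of the element read by the lysosomal regulator TFEB.
Timd4, chr11:46810549-46810798, plus strand: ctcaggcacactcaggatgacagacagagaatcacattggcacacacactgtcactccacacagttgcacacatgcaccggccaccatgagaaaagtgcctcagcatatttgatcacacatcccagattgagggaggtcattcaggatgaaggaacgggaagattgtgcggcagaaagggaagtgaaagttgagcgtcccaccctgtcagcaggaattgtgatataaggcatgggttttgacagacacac
Marco, chr1:120505025-120505274, minus strand: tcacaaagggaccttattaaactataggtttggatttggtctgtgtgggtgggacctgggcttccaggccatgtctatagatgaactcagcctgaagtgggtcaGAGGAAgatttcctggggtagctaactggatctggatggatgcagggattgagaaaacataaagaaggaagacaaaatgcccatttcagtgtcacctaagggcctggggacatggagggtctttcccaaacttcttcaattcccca
Ctsk, chr3:95498960-95499209, plus strand: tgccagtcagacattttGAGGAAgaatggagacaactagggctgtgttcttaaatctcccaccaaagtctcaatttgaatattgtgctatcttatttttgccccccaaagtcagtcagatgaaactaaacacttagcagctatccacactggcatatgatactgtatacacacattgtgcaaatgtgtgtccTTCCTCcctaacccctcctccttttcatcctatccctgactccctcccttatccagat
Ctss, chr3:95526536-95526785, plus strand: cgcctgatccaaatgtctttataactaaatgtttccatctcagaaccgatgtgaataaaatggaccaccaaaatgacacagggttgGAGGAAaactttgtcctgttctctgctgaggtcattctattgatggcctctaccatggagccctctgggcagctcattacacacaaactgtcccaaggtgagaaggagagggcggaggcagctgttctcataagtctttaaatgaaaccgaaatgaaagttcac
Ctsd, chr7:142387828-142388077, minus strand: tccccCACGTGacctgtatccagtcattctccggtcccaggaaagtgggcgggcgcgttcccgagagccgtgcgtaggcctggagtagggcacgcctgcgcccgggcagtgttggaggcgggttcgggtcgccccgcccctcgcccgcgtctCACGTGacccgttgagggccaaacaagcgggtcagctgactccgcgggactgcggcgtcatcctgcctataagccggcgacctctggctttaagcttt
Lipa, chr19:34527475-34527724, minus strand: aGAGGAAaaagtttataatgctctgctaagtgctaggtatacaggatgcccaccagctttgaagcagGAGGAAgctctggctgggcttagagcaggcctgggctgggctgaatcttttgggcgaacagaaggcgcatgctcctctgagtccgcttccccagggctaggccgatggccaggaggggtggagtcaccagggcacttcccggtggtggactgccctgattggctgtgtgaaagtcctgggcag
Fcgr1, chr3:96293970-96294219, minus strand: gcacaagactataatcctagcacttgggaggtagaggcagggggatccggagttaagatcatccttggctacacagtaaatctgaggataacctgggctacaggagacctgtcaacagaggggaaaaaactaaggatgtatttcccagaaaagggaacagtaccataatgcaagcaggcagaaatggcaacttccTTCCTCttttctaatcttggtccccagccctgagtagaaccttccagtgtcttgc

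RefSeq windows were found for 31 members (35 windows). The PU.1 core lay upstream in 16 of these members: 11 of the 18 that fell, both that rose, and 3 of the 11 that did not pass. It was in 48.6% of the member windows and in 23.3% of all 32851 windows. Timd4, the member with the steepest fall, has no match in its window, and Fcgr1, which rose, has 1. The TFEB core was in 5.71% of member windows and 6.02% of all windows, in Ctsd (2 matches) and Ctsl. A match is a description of letters, not a bound site.

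Macrophage genes were mostly lower in the fat of Adissp-treated mice. Of the 41 members 25 fell, against 16.5% of all tested genes called lower, and 2 rose (Fcgr1 and Lipa), against 18.5% called higher. The median log2 fold change of ADISSP over Control was -0.75 over the members and -0.01 over all tested genes. Calls rest on an adjusted p under 0.05 (edgeR quasi-likelihood, Benjamini-Hochberg over all tested genes), and every adjusted p below is from that test unless a TPM fit by limma is named. In 29 members every ADISSP library lay below every Control library, as in 23.8% of all tested genes, and in 4 every one lay above, as in 26% of them. In bulk tissue, fewer macrophages, less RNA of these genes per macrophage and fewer other cells that make some of them cannot be told apart. Levels are CPM, counts per 1000000 of the scaled total of a library, and groups are given as mean ± SD with n = 3.

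**Figure D1:**
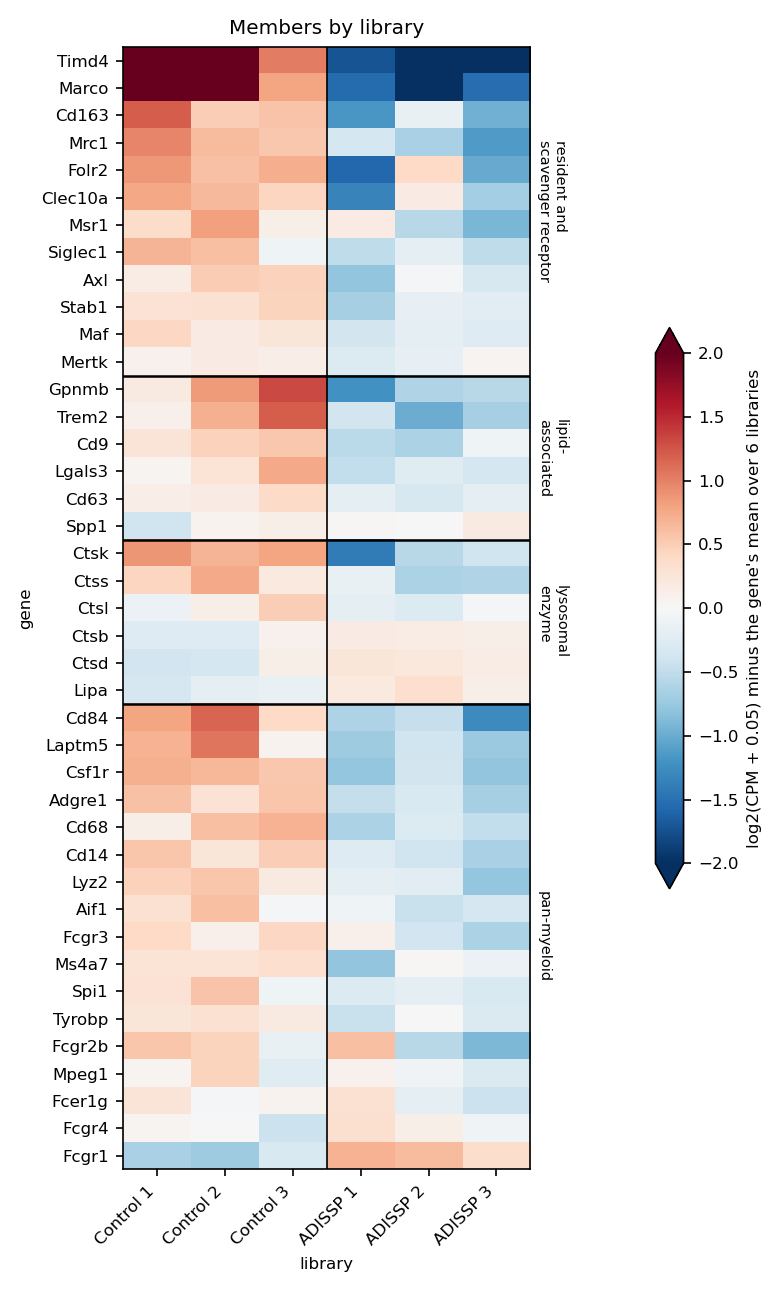
Level of the 41 members (rows, by class) in the 6 libraries (columns), as log2(CPM + 0.05) minus the mean of the gene over the libraries. Most rows are red in Control and blue in ADISSP, Timd4 and Marco run past the colour scale of -2 to 2, Control 3 is the highest control in all 6 lipid-associated rows, and Fcgr1 at the bottom runs the other way.

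Libraries held 10357930 to 15658428 counts, and the members took 0.526% to 0.564% of these unscaled totals in Control and 0.369% to 0.380% in ADISSP. On the scaled totals the difference was smaller. Members summed to 4546, 4786 and 5190 CPM in Control 1, 2 and 3 and 4280, 4348 and 4109 CPM in ADISSP 1, 2 and 3. The lysosomal enzymes made up 2421 to 3171 CPM of that sum in Control and 3028 to 3120 CPM in ADISSP. Control 3 stood apart from the other controls. The summed level of 10 B cell markers was 616, 729 and 142 CPM in Control 1, 2 and 3 and 6.58, 12.7 and 10.1 CPM in ADISSP 1, 2 and 3. That of 6 skeletal muscle markers was 28.0, 35.6 and 8324 CPM in Control and 2655 to 3234 CPM in ADISSP. The ADISSP libraries were also compared with Control 3 alone, as set by the rule that defines the members. There the spread comes from the ADISSP libraries, and differences between control mice are not measured. Against Control 3 alone 17 members were lower (7.12% of all tested genes were), 16 of them among the 25 above and the other being Ctsl. The 9 that fell with all libraries but did not pass there were Mrc1, Cd163, Siglec1, Axl, Lyz2, Cd14, Spi1, Tyrobp and Fcgr3. None was higher past the threshold in that edgeR fit (10.3% of all tested genes were), and 2 were at an unadjusted p under 0.05. The comparisons share Control 3 and the ADISSP libraries, so one does not support the other.

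The count of lower members is read against the share of all genes called in the same fit. Leaving out Control 1, 2 or 3 gave 20, 20 and 25 lower members, with 8.83%, 9.66% and 23.1% of all genes called lower. Leaving out ADISSP 1, 2 or 3 gave 21, 25 and 16, with 9.17%, 10.2% and 9.74% called lower. Higher members numbered 4 without Control 3 (Fcgr1, Lipa, Ctsd and Ctsb, against 23.6% of all genes) and 2 in each of the other fits, where 12.8%, 13.4%, 13.6%, 13.6% and 14.4% of all genes were called higher. DESeq2 gave 28 lower and 2 higher members (14.2% and 13.9% of all genes), and edgeR with no filter on low counts 25 and 3 (10.4% and 10.1%). Scaling by DESeq2 size factors in edgeR gave 25 and 2 (17.1% and 17.7%). On library totals 32 were lower and 1 higher, against 38.1% and 10.1% of all genes. Limma on log2(TPM + 1) gave 35 lower members against 41.3% of all genes and none higher against 5.52%, with 1 higher at an unadjusted p under 0.05. On log2(TPM + 0.1) the shares of all genes were 40.7% and 5.48%.

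The level of the other cell types in the tissue moved as well. The 9 fibroblast markers summed to 4178 to 4716 CPM in Control and 1879 to 2632 CPM in ADISSP, with 6 of them lower. Summed markers of T and natural killer cells were at 69.3 to 277 CPM in Control and 28.4 to 31.4 CPM in ADISSP, with 10 of 12 lower. The 6 lymph node stroma and vessel markers summed to 70.1, 101 and 20.9 CPM in Control 1, 2 and 3 and to 1.28 to 2.21 CPM in ADISSP, where 3 of them, Glycam1 included, had no count. Dendritic cell markers summed to 59.6 to 125 CPM in Control and 46.7 to 49.96 CPM in ADISSP, with 5 of 9 lower, and mast cell markers to 47.0 to 74.3 CPM and 20.3 to 29.7 CPM, with 5 of 5 tested lower. The 8 fat cell markers summed to 8240 to 11460 CPM in Control and 12580 to 13730 CPM in ADISSP, with 4 of them higher. Without Control 3, 7 were higher, where 23.6% of all genes were. Neutrophil markers were scarce, at 9.84 to 13.9 CPM in Control and 8.18 to 31.8 CPM in ADISSP, and 3 of the 12 had no count in any library. The part of these cells in the changes of the members was not tested.

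Of the 12 resident macrophage genes 8 fell and the other 4 (Clec10a, Msr1, Folr2 and Mertk) did not pass, with a median log2 fold change of -0.98. Mrc1, the mannose receptor CD206 (ENSMUSG00000026712, GRCm39 chromosome 2, 14234203 to 14336868), was at 183, 145 and 136 CPM in Control 1, 2 and 3 and at 73.0, 59.4 and 42.5 CPM in ADISSP 1, 2 and 3. Every ADISSP library lay below every control. The log2 fold change was -1.41 (SE 0.21, adjusted p = 0.00214), and against Control 3 alone it was -1.23 with adjusted p = 0.0713, past no threshold. Maf, a transcription factor of resident macrophages, was at 107, 89.6 and 94.6 CPM in Control and 62.4, 70.7 and 67.1 CPM in ADISSP. Stab1, the scavenger receptor stabilin-1, which lymphatic and sinusoidal endothelium also makes, was at 139, 141 and 156 CPM in Control and 72.1, 102 and 98.2 CPM in ADISSP. Neither gene's groups overlapped. Maf fell by 0.54 (SE 0.10, adjusted p = 0.00388) and Stab1 by 0.68 (SE 0.14, adjusted p = 0.00560) on the log2 scale, and both also passed against Control 3 alone.

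Timd4 and Marco fell far more than the rest. Timd4 encodes TIM-4, a receptor for phosphatidylserine on dying cells, and Marco a class A scavenger receptor that macrophages of lymph node sinuses and of the splenic marginal zone carry. Timd4 (ENSMUSG00000055546, GRCm39 chromosome 11, 46701627 to 46735159) had 398, 546 and 90 counts in Control 1, 2 and 3 and 11, 5 and 4 counts in ADISSP 1, 2 and 3. In CPM that is 22.6, 30.1 and 6.15 in Control and 0.872, 0.553 and 0.284 in ADISSP. Control 3 lay between the other controls and the treated libraries, and the groups did not overlap. The mean was 34.4-fold lower in ADISSP (log2 fold change of -5.10, SE 0.80, adjusted p = 0.00625). Marco (GRCm39 chromosome 1, 120402267 to 120432753), described per library after its values were seen, was at 43.9, 54.4 and 12.1 CPM in Control and 2.38, 0.663 and 2.42 CPM in ADISSP. It had the same order of libraries: high in Control 1 and 2, lower in Control 3, lowest in ADISSP. The mean was 20.2-fold lower (log2 fold change of -4.27, SE 0.78, adjusted p = 0.0130), a call lost without ADISSP 1 (-4.46, adjusted p = 0.0600) or ADISSP 3 (-4.50, adjusted p = 0.0532). Against Control 3 alone Timd4 was at -3.43 and Marco at -2.67, both past the threshold.

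These library patterns ran with the B cell markers. Control 3 held 0.234 of the mean of the other controls for Timd4, 0.246 for Marco and 0.211 for the summed B cell markers. For Mrc1, Csf1r and Adgre1 that ratio was 0.832, 0.904 and 1.08. As a share of the summed B cell level, Timd4 stood at 3.67%, 4.13% and 4.34% in the controls and Marco at 7.12%, 7.46% and 8.53%. In ADISSP, where both sides rest on few counts, the shares ranged from 2.82% to 13.3% for Timd4 and from 5.22% to 36.1% for Marco. Mrc1 stood at 29.7%, 19.8% and 96.1% of it in the controls, with Control 3 far above the others. Cd5l and Cd209b, other macrophage genes named here after their values were seen, had the same order of libraries. Cd5l went from 8.94 ± 5.94 to 0.290 ± 0.132 CPM and Cd209b, a lectin of marginal zone and lymph node macrophages, from 37.4 ± 22.6 to 2.49 ± 1.71 CPM.

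**Figure D2:**
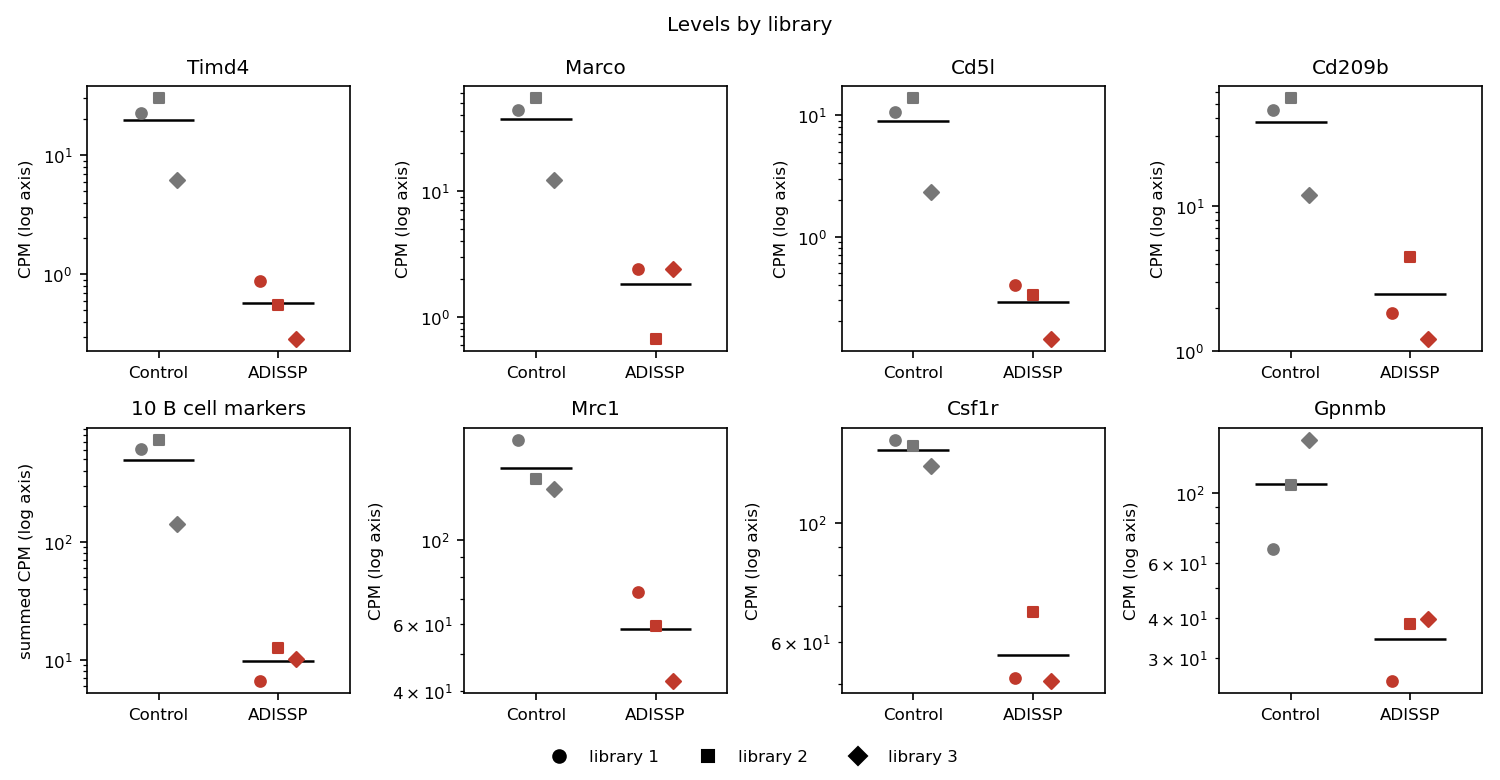
CPM (log axes) in each library for Timd4, Marco, Cd5l, Cd209b, the sum of 10 B cell markers, Mrc1, Csf1r and Gpnmb, with lines at the group means. Control 3 (diamond) lies well below the other controls for the first 4 genes and the B cell sum, near them for Mrc1 and Csf1r, and above them for Gpnmb at 146 CPM.

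Several of the remaining resident receptors changed their call when 1 library was left out. Cd163, the receptor for haemoglobin bound to haptoglobin, fell by 1.497 on the log2 scale (adjusted p = 0.0173), a call lost without ADISSP 1 (-1.29, adjusted p = 0.0531) or ADISSP 3 (-1.36, adjusted p = 0.0659), and with no filter on low counts (-1.51, adjusted p = 0.0674). Siglec1, the sialic acid receptor CD169 of tissue and lymph node macrophages, fell by 0.84 (adjusted p = 0.0193). Its call was lost without Control 1 (-0.70, adjusted p = 0.0572), Control 2 (-0.75, adjusted p = 0.0647), ADISSP 1 (-0.77, adjusted p = 0.0753) or ADISSP 3 (-0.76, adjusted p = 0.0725). The receptor kinase Axl, which binds dying cells through bridging ligands and is also made by fibroblasts, fell by 0.73 (adjusted p = 0.0219). That call was lost without Control 2 (-0.66, adjusted p = 0.0787), Control 3 (-0.69, adjusted p = 0.0541) or ADISSP 3 (-0.73, adjusted p = 0.0695). ADISSP 2 was the highest treated library for Cd163, Siglec1, Axl, Folr2 and Clec10a. The folate receptor Folr2 was at 17.4, 14.3 and 15.9 CPM in Control and 3.17, 12.6 and 4.69 CPM in ADISSP. With ADISSP 2 it did not pass (-1.25, adjusted p = 0.0990), and without it the value was -1.99 and passed (adjusted p = 0.00169). The lectin Clec10a likewise had -1.13 (adjusted p = 0.0587) with all libraries and -1.58 (adjusted p = 0.00368) without ADISSP 2. The scavenger receptor Msr1 was at -0.84 (adjusted p = 0.0609) and passed without Control 3 (-0.98, adjusted p = 0.0182) or ADISSP 1 (-1.20, adjusted p = 0.0172). Mertk, the other receptor kinase for dying cells, was at -0.25 (adjusted p = 0.106).

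Ligands of Axl and Mertk were lower too. All 3 genes of that short list fell: Pros1 by 0.71 (adjusted p = 0.00197), Gas6 by 0.61 (adjusted p = 0.0191) and the paralogous receptor Tyro3 by 1.13 (adjusted p = 0.0266), with a median of -0.71. Without Control 3, 2 of them fell, and against Control 3 alone 1 did, Pros1. In a separate list of 17 tested resident macrophage genes, Cd5l and Cd209b included, 12 fell and 1 rose, beside 16.5% and 18.5% of all tested genes. The median of this list was -1.04, and -0.93 against Control 3 alone. Lyve1, the hyaluronan receptor of perivascular macrophages and lymphatic endothelium, fell from 22.8 ± 6.47 to 4.54 ± 1.24 CPM (log2 fold change of -2.35, SE 0.27, adjusted p = 4.5e-04). The chemokine Pf4 fell by 1.25 (adjusted p = 0.00182) and the complement subunit C1qb by 0.67 (adjusted p = 0.00209). Slc40a1, the iron exporter ferroportin, was the 1 that rose, by 0.59 (adjusted p = 0.00364), and against Control 3 alone it did not pass (0.50).

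**Figure D3:**
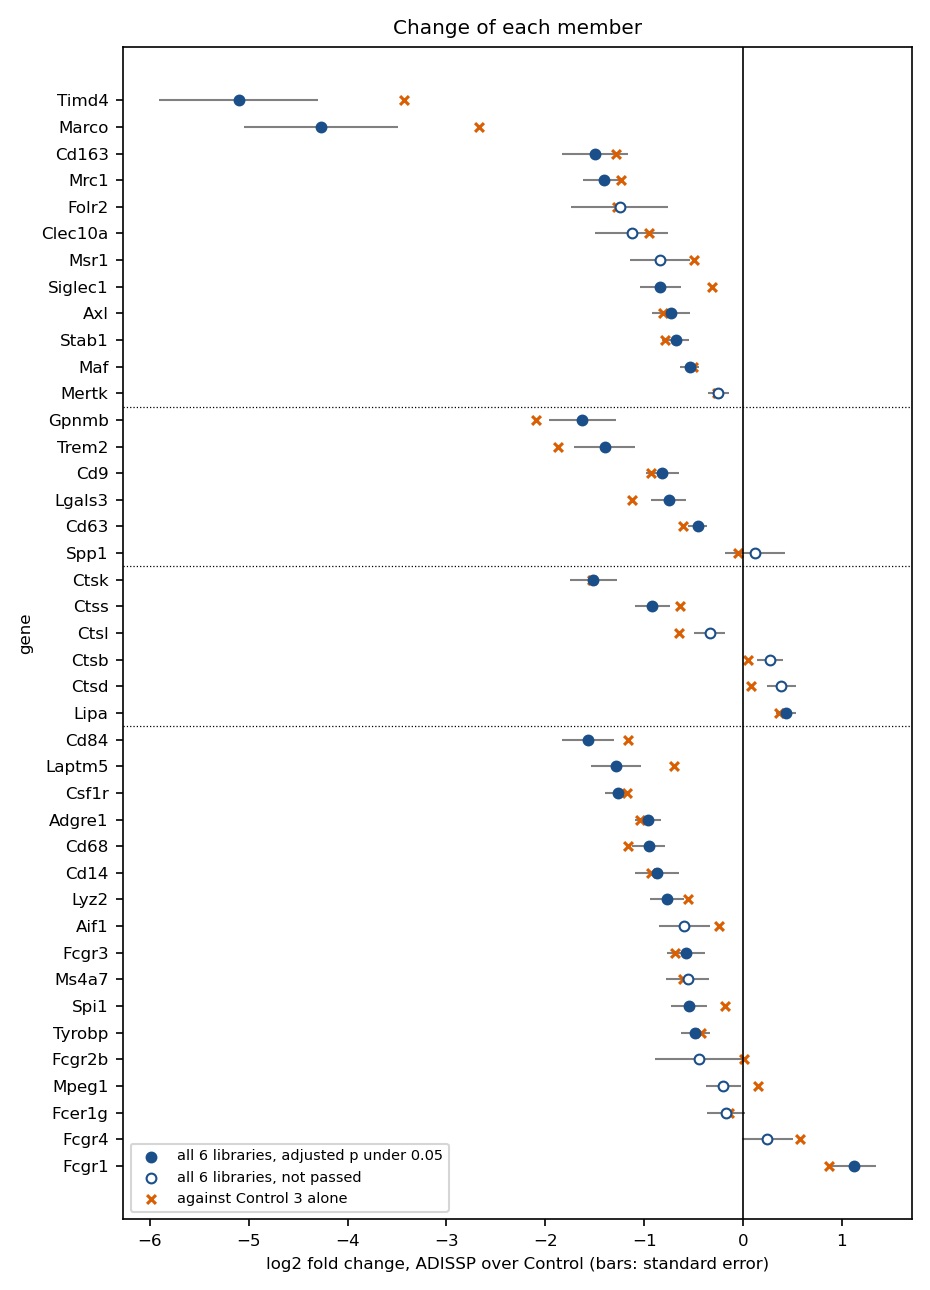
Log2 fold change of each member (x axis, bars of 1 standard error) with all 6 libraries, filled where the adjusted p is under 0.05, and against Control 3 alone (crosses). Crosses lie nearer 0 than circles for Timd4, Marco, Siglec1 and Laptm5 and farther below 0 for Gpnmb, Trem2 and Lgals3.

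Of the 6 lipid-associated genes 5 fell, and the same number was lower against Control 3 alone, with medians of -0.79 and -1.03. Trem2, a lipid-binding receptor that defines these cells, was at 5.50, 8.43 and 11.96 CPM in Control 1, 2 and 3 and at 3.96, 2.54 and 3.20 CPM in ADISSP. All treated libraries lay below all controls, and Control 3 was the highest. Trem2 fell by 1.401 on the log2 scale (SE 0.31, adjusted p = 0.00908), and by 1.87 against Control 3 alone. Gpnmb, a glycoprotein switched on when lysosomes are loaded, was at 66.4, 106 and 146 CPM in Control and 25.3, 38.5 and 39.7 CPM in ADISSP. It too was highest in Control 3, without overlap between groups. The value was -1.62 (SE 0.34, adjusted p = 0.0152), and the call was lost without Control 2 (-1.63, adjusted p = 0.0569) and with no filter on low counts (-1.64, adjusted p = 0.0548).

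The tetraspanins of the same cells, which many other cells also carry, fell less. Cd9 was at 25.2, 29.3 and 30.8 CPM in Control and 14.5, 13.7 and 20.1 CPM in ADISSP, and Cd63 at 69.9, 71.8 and 83.2 CPM in Control and 55.8, 51.1 and 56.6 CPM in ADISSP. Neither overlapped between groups. Cd9 fell by 0.82 (SE 0.17, adjusted p = 0.00597) and Cd63 by 0.46 (SE 0.10, adjusted p = 0.00770) on the log2 scale. Lgals3, the secreted sugar-binding protein galectin-3, was at 102, 119 and 167 CPM in Control and 69.8, 82.9 and 77.3 CPM in ADISSP. Control 3 was again the highest, and the groups did not overlap. Lgals3 fell by 0.75 (SE 0.18, adjusted p = 0.0133), with its call lost without ADISSP 1 (-0.68, adjusted p = 0.0613) or ADISSP 3 (-0.75, adjusted p = 0.0535). Spp1, the secreted protein osteopontin, had few reads, with 25, 36 and 30 counts in Control and 24, 17 and 30 in ADISSP. Its log2 fold change was 0.12 (SE 0.30), and no difference was detectable at this depth.

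All 6 of these genes were highest among the controls in Control 3, as 40.8% of all tested genes were. The median ratio of Control 3 to the mean of Control 1 and 2 was 1.36 in this class, 0.827 among resident and 0.904 among pan-myeloid genes.

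The other 12 genes tied to lipid-associated macrophages split evenly, with 4 lower and 4 higher, beside 16.5% and 18.5% of all tested genes. Their median was -0.09 with all libraries, 0.13 without Control 3 and 0.034 without ADISSP 1. It was -0.15 without Control 2 and -0.17 against Control 3 alone. Several of the 12 genes are made by fat cells in quantity. Pla2g7, a phospholipase, rose by 1.69 (adjusted p = 2.8e-05) and Syngr1, a vesicle membrane protein, by 2.14 (adjusted p = 0.00294). Nceh1, a neutral cholesterol ester hydrolase of foam cells, fell from 24.0 ± 4.23 to 9.16 ± 1.32 CPM (log2 fold change of -1.39, adjusted p = 4.9e-04).

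Lysosomal enzymes did not move as one class: Ctsk and Ctss fell, Lipa rose, and Ctsb, Ctsl and Ctsd did not pass, with a median of -0.03. Ctsk, a collagen-degrading protease best known from osteoclasts and also made by fibroblasts, was at 41.9, 36.6 and 39.6 CPM in Control and 8.56, 15.5 and 17.3 CPM in ADISSP. Ctss, which trims the invariant chain of class II molecules in antigen-presenting cells, was at 97.9, 122 and 83.4 CPM in Control and 66.0, 46.9 and 48.1 CPM in ADISSP. In both genes all treated libraries lay below all controls. Ctsk fell by 1.52 (SE 0.24, adjusted p = 0.00243) and Ctss by 0.92 (SE 0.18, adjusted p = 0.00624) on the log2 scale, and both also passed against Control 3 alone, at -1.53 and -0.64. The genes are neighbours on the plus strand of GRCm39 chromosome 3, Ctsk at 95406567 to 95416673 and Ctss at 95434097 to 95463714, and their upstream sequences above both hold the PU.1 core.

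Lipa, the lysosomal acid lipase that frees cholesterol and fatty acids, was at 94.0, 105 and 107 CPM in Control and 136, 149 and 129 CPM in ADISSP. The groups did not overlap, and it rose by 0.44 on the log2 scale (SE 0.10, adjusted p = 0.00978). This direction depended on the scaling: the value was 0.09 and did not pass on library totals, where the median of all genes shifted from -0.01 to -0.36, and it was -0.14 on log2(TPM + 1), where that median was -0.45. In each case Lipa lay above the median of all genes. Against Control 3 alone it was at 0.36 (adjusted p = 0.0623).

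Ctsd, the aspartic cathepsin, was at 517, 529 and 729 CPM in Control and 798, 781 and 742 CPM in ADISSP, and the cysteine cathepsin Ctsb at 1340, 1343 and 1706 CPM in Control and 1793, 1768 and 1739 CPM in ADISSP. In both, Control 3 was close to the treated libraries and Control 1 and 2 were lower. With all libraries Ctsd had a log2 fold change of 0.39 (adjusted p = 0.0723) and Ctsb of 0.27 (adjusted p = 0.143). Without Control 3 both passed, at 0.57 (adjusted p = 5.2e-04) and 0.40 (adjusted p = 0.00870), and against Control 3 alone they were at 0.08 and 0.05. On log2(TPM + 1) both turned below 0. Ctsl, a further cysteine cathepsin, was at 331, 389 and 507 CPM in Control and 318, 298.5 and 354 CPM in ADISSP. Its groups overlapped through Control 1, the value of -0.34 did not pass (adjusted p = 0.133), and against Control 3 alone it was -0.65 and passed (adjusted p = 0.00362). Per length, Ctsd and Ctsb were the most abundant members in the deposited TPM (transcripts per 1000000), at 1054 ± 152 and 1016 ± 88.4 in Control, and these levels did not differ beyond their spread, which also reached that of Lyz2 at 837 ± 154. Ctsk stood at 110 ± 7.66 and Lipa at 63.4 ± 4.78 TPM there.

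Other lysosomal genes also split. Of 43 further enzymes and membrane proteins 13 fell and 7 rose, with a median of -0.11, beside 16.5% and 18.5% of all tested genes. Without Control 3, 13 fell and 13 rose, where 23.1% and 23.6% of all genes did. Against Control 3 alone the median was -0.19. Ctsz, an exopeptidase of the cathepsin family, rose from 132 ± 20.8 to 274 ± 5.34 CPM (log2 fold change of 1.06, SE 0.12, adjusted p = 3.6e-04). The acid ceramidase Asah1 fell by 0.65 (adjusted p = 7.3e-04). In the proton pump that acidifies lysosomes, 7 of 18 genes rose and 2 fell, beside 18.5% and 16.5% of all tested genes. The median was 0.16, and 0.054 against Control 3 alone. Atp6v1f rose by 0.92 (adjusted p = 2.2e-04), Atp6v0a2 by 0.70 (adjusted p = 6.3e-04) and Atp6v0e by 0.64 (adjusted p = 0.00119). The 2 lower ones were Atp6v0d2, a subunit form of osteoclasts and macrophages, from 15.5 ± 6.64 to 4.82 ± 1.71 CPM (log2 fold change of -1.70, adjusted p = 0.0124), and Atp6ap2 (-0.55, adjusted p = 0.00707). Atp6v0d2 was at 9.99, 13.7 and 22.9 CPM in Control 1, 2 and 3, highest in Control 3 as Gpnmb and Trem2 were. The direction of the pump list depended on scaling, with a median of -0.19 on library totals.

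**Figure D4:**
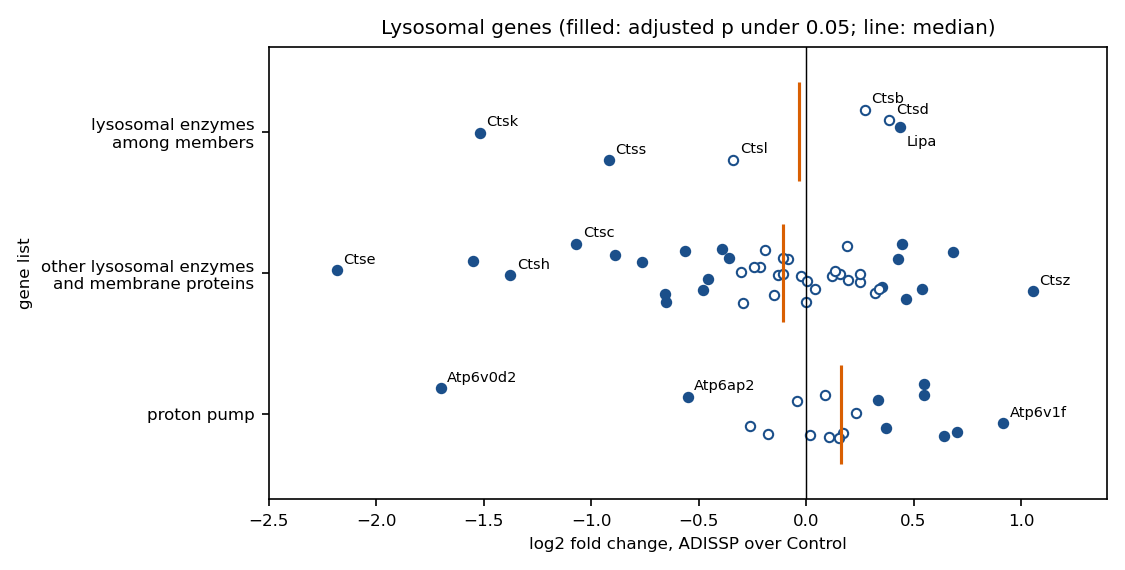
Log2 fold change (x axis) of the 6 lysosomal enzymes among the members, 43 other lysosomal enzymes and membrane proteins and 18 proton pump genes, filled where the adjusted p is under 0.05, with a line at each median of -0.03, -0.11 and 0.16. Each list spreads to both sides of 0, and Ctsk, Ctse (-2.19, named after its value was seen) and Atp6v0d2 (-1.70) lie farthest to the left in theirs.

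Among cathepsin inhibitors, Cst3, cystatin C, rose by 0.54 (adjusted p = 0.0163), Cstb was at 0.01, and the other 5 had too few counts to be tested. Of the transcription factors that drive lysosomal genes, Mitf fell by 0.37 (adjusted p = 0.0313), while Tfe3 was at 0.19 (adjusted p = 0.133) and Tfeb at 0.12 (adjusted p = 0.526).

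Pan-myeloid genes fell in 10 of 17 cases and Fcgr1 rose, with a median of -0.58. Csf1r, the receptor through which macrophages survive, was at 143, 139 and 127 CPM in Control and 51.4, 68.1 and 50.6 CPM in ADISSP. Adgre1, the macrophage surface antigen F4/80, was at 48.6, 39.6 and 47.4 CPM in Control and 23.1, 26.1 and 20.3 CPM in ADISSP. The controls lay close together in both genes, Control 3 included, and every treated library lay below them. Csf1r fell by 1.27 (SE 0.13, adjusted p = 1.5e-04) and Adgre1 by 0.97 (SE 0.13, adjusted p = 7.9e-04) on the log2 scale, and against Control 3 alone they were at -1.18 and -1.04, also past the threshold. The lysosomal membrane protein Cd68 was at 37.8, 52.7 and 56.6 CPM in Control and 22.4, 28.7 and 24.9 CPM in ADISSP, and the adhesion receptor Cd84 at 46.1, 59.5 and 35.1 CPM in Control and 17.4, 19.2 and 11.0 CPM in ADISSP. Neither overlapped between groups, and among the controls Cd68 was highest and Cd84 lowest in Control 3. Cd68 fell by 0.95 (SE 0.17, adjusted p = 0.00298) and Cd84 by 1.57 (SE 0.26, adjusted p = 0.00405).

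Calls of the other members of this class held to differing degrees. Laptm5, a lysosomal protein of blood cells including lymphocytes, fell by 1.28 (adjusted p = 0.0101) and against Control 3 alone by 0.69. Its call was lost in no fit that left out 1 library. Lyz2, lysozyme, fell by 0.77 (adjusted p = 0.00947), and did not pass against Control 3 alone (-0.55, adjusted p = 0.173). Cd14, the co-receptor for bacterial lipopolysaccharide, fell by 0.87 (adjusted p = 0.0170), a call lost without Control 1 (-0.81, adjusted p = 0.0741) or ADISSP 3 (-0.75, adjusted p = 0.0645). Spi1, the gene of PU.1, went from 16.9 ± 3.77 to 11.6 ± 0.426 CPM (log2 fold change of -0.55, adjusted p = 0.0413). Its call held only without Control 3 among the fits that left out 1 library: it was lost without Control 1 (-0.55, adjusted p = 0.104), Control 2 (-0.38, adjusted p = 0.165), ADISSP 1 (-0.52, adjusted p = 0.108), ADISSP 2 (-0.56, adjusted p = 0.0937) and ADISSP 3 (-0.51, adjusted p = 0.116). The markers Ms4a7 (-0.56, adjusted p = 0.0720) and Aif1 (-0.59, adjusted p = 0.106) did not pass, and Aif1 passed without Control 3 (-0.73, adjusted p = 0.0316). Mpeg1, a pore-forming protein of phagocytes, was at -0.20 (adjusted p = 0.416).

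Receptors for antibodies went separate ways. Fcgr1, the high-affinity receptor for IgG, was at 3.01, 2.86 and 3.83 CPM in Control (53, 52 and 56 counts) and 7.69, 7.41 and 6.05 CPM in ADISSP (97, 67 and 85 counts). All treated libraries lay above all controls, and the mean was 2.18-fold higher (log2 fold change of 1.12, SE 0.22, adjusted p = 0.00547). Against Control 3 alone it was 0.87 and did not pass (adjusted p = 0.0825), and on log2(TPM + 1) it was 0.47 (adjusted p = 0.0563). Fcgr3, an activating receptor of lower affinity, was at 28.9, 23.5 and 29.3 CPM in Control and 23.5, 16.9 and 14.1 CPM in ADISSP, so that ADISSP 1 reached the lowest control. It fell by 0.58 (adjusted p = 0.0440), a call lost without Control 1 (-0.54, adjusted p = 0.124), Control 3 (-0.52, adjusted p = 0.0533), ADISSP 2 (-0.52, adjusted p = 0.147) or ADISSP 3 (-0.41, adjusted p = 0.145).

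The inhibitory receptor Fcgr2b, which B cells carry as well, was at 49.5, 46.2 and 30.6 CPM in Control and 51.4, 23.0 and 18.1 CPM in ADISSP. ADISSP 1 stood above every control, the value of -0.45 did not pass (SE 0.44, adjusted p = 0.485), and without ADISSP 1 it was -1.02 and passed (adjusted p = 0.0203). Fcgr4, an activating receptor, was at 3.46, 3.36 and 2.46 CPM in Control and 4.20, 3.65 and 3.20 CPM in ADISSP, overlapping groups with a value of 0.25 (SE 0.26, adjusted p = 0.491). Per length, in Control, Fcgr3 was at 65.9 ± 5.51, Fcgr2b at 30.9 ± 8.69, Fcgr4 at 10.5 ± 2.35 and Fcgr1 at 5.24 ± 0.526 TPM. Libraries of neighbours in that order did not overlap. Fcgr2b, Fcgr4, Fcgr3 and the adaptor gene Fcer1g lie close together on GRCm39 chromosome 1, between 170786186 and 171061934, and Fcgr1 lies on chromosome 3, 96190225 to 96201285. The family shares sequence, so reads could be split between its members.

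**Figure D5:**
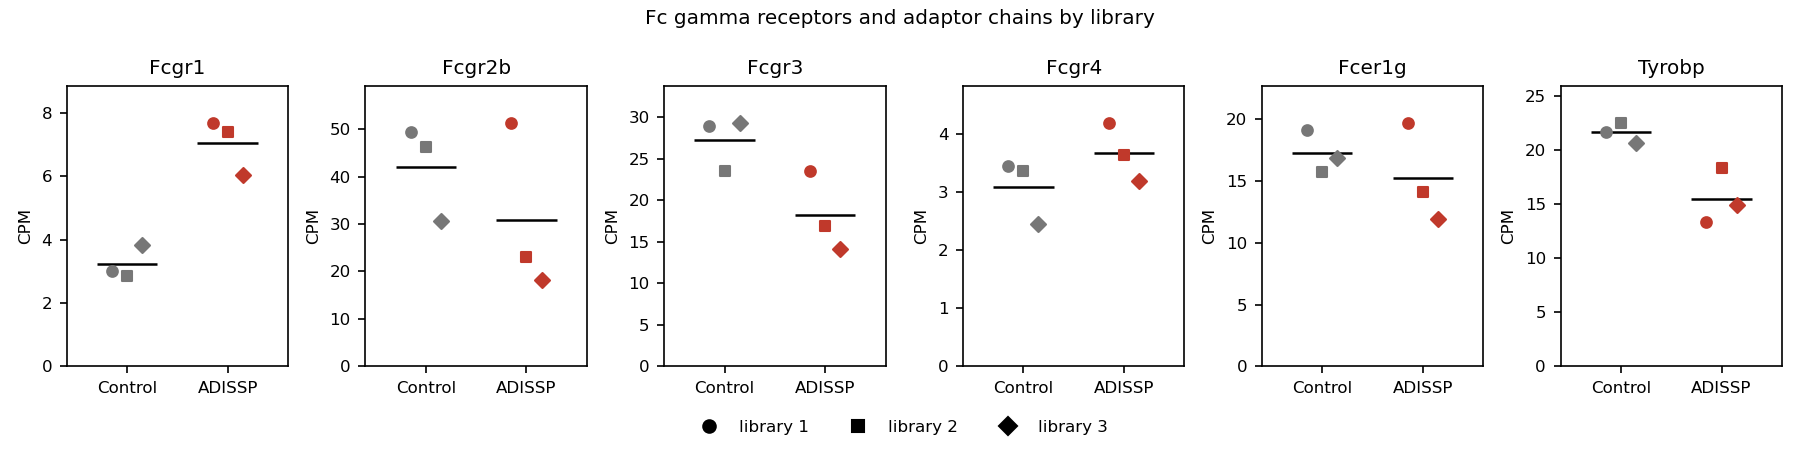
CPM in each library for the IgG receptors Fcgr1, Fcgr2b, Fcgr3 and Fcgr4 and the adaptor chains Fcer1g and Tyrobp, with lines at the group means and axes from 0. Fcgr1 is higher in every treated library, Tyrobp lower in every one, and ADISSP 1 (circle) stands at control levels for Fcgr2b and Fcer1g.

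The adaptor chains that carry signals from the activating IgG receptors and from Trem2 had small log2 fold changes. Tyrobp, which encodes DAP12, went from 21.6 ± 0.946 to 15.5 ± 2.58 CPM (log2 fold change of -0.48, adjusted p = 0.0301). Its call was lost without Control 1 (-0.48, adjusted p = 0.0836), Control 2 (-0.45, adjusted p = 0.0918), ADISSP 1 (-0.37, adjusted p = 0.104) or ADISSP 3 (-0.44, adjusted p = 0.0993). Fcer1g, the gamma chain shared by Fc receptors, was at -0.17 (SE 0.19, adjusted p = 0.512). Of 15 tested signalling partners of these adaptors 11 fell, with a median of -1.02, among them the integrin chain Itgb2 (-1.02, adjusted p = 0.00248), the kinase Btk (-1.98, adjusted p = 0.00698) and the inhibitory receptor Sirpa (-0.48, adjusted p = 0.00817). Many of these genes act in lymphocytes too: the list's summed level was 1150, 1346 and 621 CPM in Control 1, 2 and 3 and 365 to 442 CPM in ADISSP.

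The ligands of Csf1r, named after their values were seen, were at -0.10 for Csf1 (SE 0.16, adjusted p = 0.665) and 0.07 for Il34 (SE 0.23, adjusted p = 0.831). Of 13 tested growth factor and transcription factor genes 2 fell and 2 rose, shares close to the 16.5% and 18.5% among all tested genes. Cebpb rose by 2.12 (adjusted p = 5.0e-04) and Cebpa by 0.74 (adjusted p = 0.00384), both of which fat cells also use, and the cytokine receptor chain Csf2rb fell by 0.69 (adjusted p = 0.0178). Of 18 monocyte and inflammatory genes 3 fell, which is close to the share among all genes, and 1 rose, with a median of -0.12. Without Control 3, 6 fell, where 23.1% of all genes did. With 1 library left out, the median ranged from -0.36 without ADISSP 1 to 0.0066 without ADISSP 3. Tlr4, the receptor for lipopolysaccharide, fell by 0.80 (adjusted p = 0.00186) and the costimulatory ligand Cd86 by 2.89 (adjusted p = 0.00969), and Nr4a1, an orphan nuclear receptor of patrolling monocytes and many other cells, rose by 2.91 (adjusted p = 0.00314). The monocyte markers Ccr2 (-0.05, adjusted p = 0.891) and Ly6c2 (0.06, adjusted p = 0.912), named after their values were seen, did not pass.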

How the data were processed

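RNA of inguinal fat was sequenced in 6 libraries after TRIzol extraction and ribosomal RNA depletion, per the labels. STAR, featureCounts and the build mm39 (GRCm39) are named by the submitters' processing notes, without versions; the annotation release and the strand setting are likewise not stated. The deposited counts are whole and not normalised. The deposited TPM values cover 23524 genes and sum to 1e+06 per library; they gave levels per length and alternatives. All columns were matched to libraries, with 0 unmapped.

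Differences were tested on counts, 3 libraries against 3 without covariates, by the robust quasi-likelihood method of edgeR 4.0.16 (R 4.3.3) after filterByExpr and TMM scaling, with Benjamini-Hochberg adjustment over 17320 genes. The fit was also run on simulated counts with known changes. These held no outlying control such as Control 3, so that run does not test the calls made here. Standard errors are the log2 fold change divided by the square root of F. A floor of 3 counts is 0.165 to 0.332 CPM per library. Alternatives used DESeq2 1.42.0 and limma 3.58.1. Intervals of the counts are not given, since no molecular identifiers are stated. Promoters are RefSeq's (GRCm38.p6) and were matched by symbol.

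Members, classes and lists were chosen with earlier results of these data known. All members may be named; those with values in every library, and the 3 genes with the smallest p of each other list, with called genes against its median where there were at most 3, followed a rule written for this work (1 gene it names is not reported here), and exceptions were named after their values were seen (per-library values of Gpnmb, Marco, Folr2 and Ctsb among the members). Without a strand setting, genes overlapping on opposite strands cannot be separated: 7 members overlap such a gene with at least 10 counts, which in Csf1r (Hmgxb3) and Folr2 (Gm10602) holds at least 10% of the member's own counts.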

Additional observations from a re-analysis of the deposited data

How the results depend on the processing

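The members lower in ADISSP numbered 16 to 25 with 1 library left out (16 without ADISSP 3) and 17 with Control 3 as the only control. Of the 27 member calls 17 held in every fit that left out 1 library and 10 were lost in at least 1; against Control 3 alone 11 were lost. Members higher numbered 2 to 4 with 1 library left out, 1 on library totals, and 0 in limma on log2(TPM + 1) or log2(TPM + 0.1) and against Control 3 alone in edgeR, with 1, 1 and 2 at an unadjusted p under 0.05. All genes called numbered 3823 (without Control 1) to 8517 (without Control 3), 11004 and 10872 in limma on log2(TPM + 1) and log2(TPM + 0.1), and 3190 against Control 3 alone.

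Scaling moved every median downward. In the order library totals, log2(TPM + 1) and log2(TPM + 0.1), the median of all genes was -0.36, -0.45 and -0.61. That of resident members was -1.35, -1.54 and -1.62, of lipid-associated members -1.13, -1.34 and -1.36, of lysosomal enzymes -0.38, -0.60 and -0.60, and of pan-myeloid members -0.93, -1.09 and -1.16. Among the other lists it was -0.45, -0.64 and -0.67 for lysosomal enzymes and membrane proteins, -0.19, -0.41 and -0.42 for the proton pump, -0.071, -0.31 and -0.31 for cathepsin inhibitors, -0.29, -0.40 and -0.58 for lysosome gene regulators, -0.46, -0.66 and -0.66 for growth factors and transcription factors, -1.40, -1.60 and -1.65 for resident, -0.43, -0.46 and -0.62 for lipid-associated macrophage genes, and -1.06, -1.19 and -1.30 for Axl and Mertk ligands. Ctsb turned to -0.30 in both TPM fits (adjusted p = 0.0402 and 0.0387) and Lipa to -0.14 in both. These scales take the mitochondrial transcripts, 3.13% to 4.21% of counts in Control and 8.43% to 11.1% in ADISSP, into the denominator; the cause was not tested.

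Against Control 3 alone the median was -0.29 for lysosomal enzymes, -0.19 for other lysosomal genes, 0.054 for the proton pump and 0.044 for the same 2 cathepsin inhibitors. With 1 library left out, medians ranged from -1.17 to -0.85 (resident), -0.90 to -0.64 (lipid-associated), -0.13 to 0.12 (lysosomal enzymes), -0.80 to -0.55 (pan-myeloid), -0.16 to -0.018 (other lysosomal), -0.36 to 0.0066 (monocyte and inflammatory) and -0.12 to 0.20 (lysosome gene regulators).

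With the replicate number as a block, 25 members were lower, 2 higher and 5541 genes called; Marco lost its call (-4.03, adjusted p = 0.0560) and Msr1 gained one. Deviations of same-numbered libraries correlated at 0.06, 0.09 and 0.06, under the limit set for a pairing, although each library correlated best with its own number. The replicate block is therefore only an alternative. Low counts limit Spp1 and Fcgr4 in both groups, and Timd4 and Marco (30, 6 and 34 counts) in ADISSP.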
